A study of Sus scrofa with 3 samples.

Results

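Cytosolic ribosomal protein genes were picked by name from the expression table of sorted pig spermatogonia: a symbol of RPL or RPS and a number, with at most a short suffix, or RPLP0 to RPLP2, or RPSA. This gave 56 rows, to which RPL36AL was added as a further paralog, for 57 of 18730 rows, 33 of the large and 24 of the small subunit. The rule uses no measured value. A further 8 rows lie outside the name rule but carry a ribosomal protein name elsewhere, and they are given apart from the members. A reference gene list held 82 symbols that fit the name rule. Of these 26 were not members, and 8 of the 26 were among the outside rows. The rest were found in no row, so the family as counted here, with its sums and shares, is incomplete. Mitochondrial ribosomal proteins and the RPS6K kinases are not part of the family. The reference table gave the same symbol for 44 members, none for 12 and a different one for RPL22, whose row it names ICMT, so that the RPL22 value is uncertain. Many ribosomal protein genes have near-identical processed copies elsewhere in the genome, and how the authors assigned reads shared with such copies is not given in the sources used here.

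Ribosomal proteins are the protein parts of the cytosolic ribosome, the particle that translates messenger RNA. Every ribosome holds a small subunit, which reads the message, and a large subunit, which joins the amino acids. The genes encoding these proteins are among the most actively transcribed of any growing cell, and their messages begin with a pyrimidine tract (5' terminal oligopyrimidine, or TOP) through which mTORC1 and LARP1 control their translation. In the testis the family has a further side, because some members have copies, made by retroposition or duplication, that are used in germ cells or in other restricted tissues.

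RNA was sequenced from SSEA4-positive spermatogonia of pigs 90 days old, and the 3 resulting libraries are called S1, S2 and S3 after the columns of the deposited table. The numbers in the sample titles differ from those of the columns, so no column could be tied to a sample, and library S3 here need not be the sample whose title has that number. SSEA4 is a cell-surface glycolipid that the study tested as a handle for enriching spermatogonial stem cells. The design text also names undifferentiated spermatogonia, which were not analysed here. All 3 libraries belong to a single group, and no genotype or treatment is given for the animals. The labels do not say whether each library came from a separate animal, so the spread between them may be technical.

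Spermatogonial transcripts were present in the sorted cells, beside those of other testis cells. All 9 measured of 11 listed spermatogonial markers lay above 1 FPKM, as did 65.6% of all tested genes (fragments per kilobase of transcript and per 1000000 mapped fragments), with DDX4 at 81.5 ± 3.18 FPKM (SD, n = 3) and GFRA1 at 2.96 ± 0.742. All 5 meiotic markers lay above 1 FPKM too, with SYCP3 at 403 ± 32.6, SMC1B at 139 ± 25.9 and STAG3 at 104 ± 17.6 FPKM, each higher than every measured spermatogonial marker. The 4 peritubular markers also lay above 1 FPKM, and no marker of any list was at 0 in every library. Other lists were only partly above 1 FPKM. They had 4 of 7 Sertoli, 2 of 4 Leydig, 2 of 5 spermatid, 1 of 4 leukocyte and 1 of 2 measured erythroid markers above it. The 7 Sertoli markers summed to 187 FPKM in S3, 302 in S2 and 406 in S1, and the 5 spermatid markers to 17.2, 5.09 and 73.0. CLU alone had 125 (S3), 234 (S2) and 325 FPKM (S1) of the Sertoli sums. No counts were available, so the depth is unknown. The columns summed to 859642 (S1), 855276 (S2) and 781871 FPKM (S3), and mitochondrially encoded genes took 57.7%, 59.3% and 52.7% of these sums.

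The members were detected throughout and at high levels. All 57 had a value above 0 in each library, and 56 lay above 1 FPKM by the limma test against that level, against a background of 65.6% of 17949 genes tested above it and 28.5% below it. The exception below it was RPL3L. Against the level of 100 FPKM, 44 of the 57 lay above and 13 below, while 2.96% of all genes lay above and 95.9% below. All members were told apart from both levels at an adjusted p under 0.05 (limma, Benjamini-Hochberg over 17949 genes). The median member stood at 226 FPKM, against 3.93 FPKM for the median of all tested genes. Of the 625 genes that averaged 100 FPKM or more, 7.04% were ribosomal protein genes. Of the 20 nuclear genes that averaged 1000 FPKM or more, 5 were members. The summed FPKM of the family was 25579 in S1, 25759 in S2 and 24031 in S3, which is 2.98%, 3.01% and 3.07% of each library (3.02% ± 0.0495, SD, n = 3). With mitochondrially encoded genes removed from the sums, the shares were 7.04% (S1), 7.40% (S2) and 6.50% (S3), so that S3 had the highest share of the whole sums and the lowest share of the nuclear ones.

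Although each ribosome takes up the core proteins in equal number apart from the stalk proteins, their transcript levels covered a wide range. Without the 6 paralogs the other 51 members had a median of 308 FPKM, and the upper quartile, 531 FPKM, was 3.17 times the lower quartile, 168 FPKM. Within a factor of 2 of the median lay 27 of the 51. The highest of them was 351 times the lowest. The lowest is the RPL22 row, whose name is in doubt. The 10 highest members took 56.0% ± 1.13 of the family's summed FPKM (SD, n = 3). FPKM is scaled to transcript length, and ribosomal protein messages are short, a range in which such scaling depends on the assumed fragment length. The values of very short transcripts are therefore less certain than those of long ones.

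**Figure D1:**
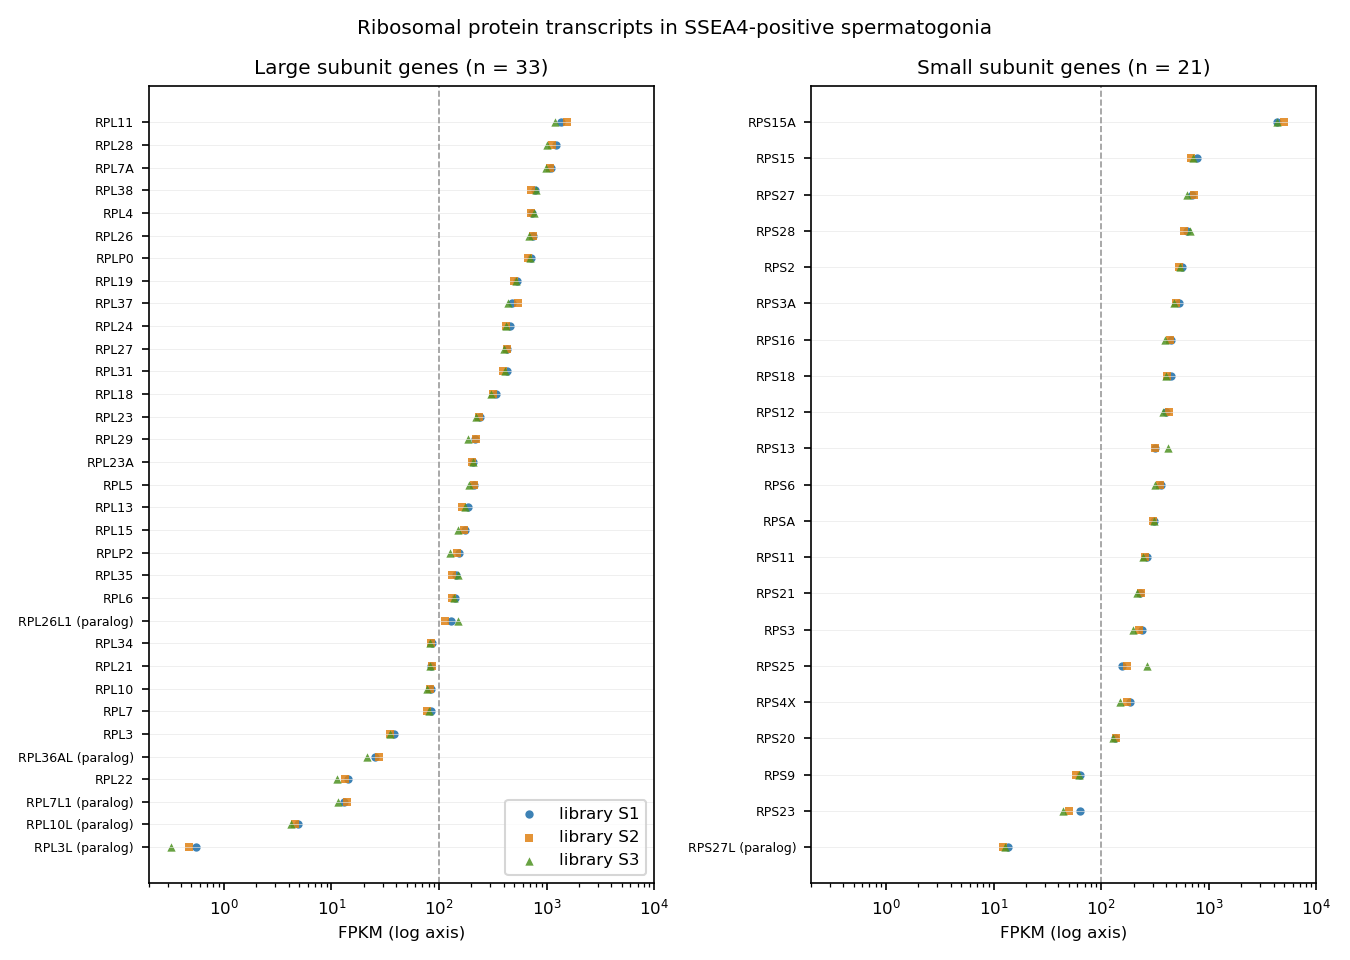
FPKM (log axis) of large and small subunit genes in libraries S1 (circles), S2 (squares) and S3 (triangles), ordered by mean and without those not reported singly; the dashed line marks 100 FPKM. The libraries lie close together for most genes, genes right of the line lie above 100 FPKM, and RPS15A stands apart at the top of the small subunit.

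Among the members, the most abundant transcript belonged to the small subunit. RPS15A, a small subunit protein that binds the central part of its rRNA, had 4337 (S1), 4993 (S2) and 4309 FPKM (S3). It was highest in S2, and its lowest value exceeded the highest of every other member. Over all genes, 13 had a higher mean than RPS15A. These were the RPS24 row outside the name rule and otherwise only mitochondrially encoded genes. RPS15, at the head of the small subunit, had 774 (S1), 683 (S2) and 708 FPKM (S3).

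RPS27, a zinc-finger protein, came next in the small subunit at 701 (S1), 731 (S2) and 633 FPKM (S3). RPS28 stood at 629 ± 42.8 FPKM (SD, n = 3). RPS2, near the entry of the message channel, had 558 (S1), 532 (S2) and 541 FPKM (S3), with a CV (coefficient of variation) of 2.40%. RPS6, the classic substrate of the S6 kinases, had 363 (S1), 353 (S2) and 314 FPKM (S3), lowest in S3. RPSA, which also has a history as a laminin receptor precursor, was the steadiest member, with 312, 302 and 309 FPKM and a CV of 1.67%. RPS3, which has a DNA repair activity besides its place at the message entry, had 239.8, 224 and 196 FPKM, and was lowest in S3.

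At the lower end of the small subunit, leaving aside the paralog RPS27L, were RPS20 at 132 ± 4.60 FPKM, RPS9 and RPS23. RPS9 is a protein whose yeast counterpart acts in decoding fidelity. It had 63.8 (S1), 57.8 (S2) and 62.3 FPKM (S3). RPS23, which reaches into the decoding centre, had 63.2, 49.8 and 43.7 FPKM in the same order. The 3 values of RPS23 were spread more widely than those of RPS9, and S1 was the highest for each gene. Both lay below 100 FPKM, RPS23 by 0.94 ± 0.11 on the log2(FPKM + 1) scale (SE, limma adjusted p = 0.000273). With mitochondrially encoded genes removed and the rest rescaled, both lay above it.

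In the large subunit the highest transcript was RPL11. Together with RPL5 and the 5S rRNA it forms the 5S particle, which can bind MDM2 and so stabilise p53 when ribosome assembly fails. RPL11 had 1359.5 (S1), 1529.7 (S2) and 1197 FPKM (S3). Its partner RPL5 had 210.0, 209 and 191 FPKM. Although the 2 proteins enter the particle in equal number, RPL11 exceeded RPL5 by 6.69 ± 0.547 times (SD, n = 3 libraries), in 3 of 3 libraries. Both were lowest in S3.

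RPL28 had 1220.5 (S1), 1114 (S2) and 999.7 FPKM (S3), and RPL7A had 1104, 1064 and 989. Both were lowest in S3 as well. RPL38, known from mouse for a role in translating Hox messages, had 781, 711 and 797 FPKM, and RPL4, which lines the tunnel through which the new chain leaves, had 737, 718 and 765. For RPL38 and RPL4, S3 was the highest library and S2 the lowest. RPL26, which sits near the tunnel exit and binds p53 mRNA in human, had 743, 749 and 686 FPKM. RPL23A, a docking site near the tunnel exit, had 208 (S1), 201 (S2) and 209 FPKM (S3) and a CV of 2.01%.

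The stalk proteins recruit the elongation factors to the ribosome. RPLP0, its base, had 715 (S1), 676 (S2) and 702 FPKM (S3). RPLP2, of which each ribosome carries more copies, had 152, 148 and 127 FPKM. RPLP0 exceeded RPLP2 by 4.94 ± 0.528 times (SD, n = 3), in 3 of 3 libraries, the opposite of the order of the proteins' copy number. RPLP1 was not a member by the name rule. The reference table gives its name to a row with no symbol in the deposited table, at 182 ± 10.8 FPKM.

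Near 100 FPKM the family divided closely. Just above it were RPL26L1 at 131 ± 18.5 FPKM, RPS20 and RPL6 at 136 ± 3.98. Just below it were RPL34 at 86.7 (S1), 84.8 (S2) and 82.0 FPKM (S3) and RPL21 at 84.8, 85.1 and 82.5. RPL7 had 84.5 (S1), 77.6 (S2) and 80.6 FPKM (S3), and RPL10 averaged 81.3 ± 3.39 (SD, n = 3). RPL34 and RPL21 had small spreads, with CVs of 2.77% and 1.68%, and both had their lowest value in S3. The adjusted p for lying below 100 FPKM was 0.00427 for RPL34 and 0.00340 for RPL21 (limma). The calls of these last 4 genes depend on how the libraries are scaled. RPL34 and RPL21 lost theirs, with a change of sign, and RPL10 and RPL7 lost theirs when each library was rescaled to 1000000, and all 4 lay above 100 FPKM when mitochondrially encoded genes were removed. RPL3, which reaches to the peptidyl transferase centre, was the lowest member other than the paralogs and RPL22, at 37.8 (S1), 35.2 (S2) and 34.7 FPKM (S3). It is a core protein of every ribosome, yet its transcript stood at a small part of the level of RPL4 or RPL11. RPL22, known for binding a viral RNA and for a role in T cell development in mouse, had 14.1, 13.5 and 11.2 FPKM, with the doubt on its name given above.

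The X chromosome carries the parent genes of some testis paralogs in mammals, and X-linked transcription is silenced during male meiosis. Of the X-linked members, RPS4X had 186 (S1), 173 (S2) and 150.0 FPKM (S3), and RPL10, which takes part in the last steps of large subunit maturation, had 84.6, 81.6 and 77.8. Both were highest in S1 and lowest in S3. Of all 57 members, 36 were highest in S1 and 38 lowest in S3 as deposited. Of the 12340 genes that averaged 1 FPKM or more, 4462 were highest in S1 and 4084 lowest in S3. Each count is taken by itself, so the members with the full order of these X-linked genes were not counted. RPL39 was not analysed here. The row named RPL36A-HNRNPH2, a readthrough name for which the reference table has RPL36A, stood at 467, 502 and 321 FPKM.

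Paralogs stood far under their parents. RPL10L, a retroposed copy of RPL10 that in mouse takes over its role in spermatocytes, had 4.87 (S1), 4.61 (S2) and 4.25 FPKM (S3), against the RPL10 values above. It reached 5.62% ± 0.155 of the RPL10 level (SD, n = 3), and the log2(FPKM + 1) difference of RPL10L minus RPL10 was -3.89 ± 0.02. RPL3L, known as a heart and skeletal muscle form of RPL3, had 0.554, 0.470 and 0.325 FPKM, which is 1.25% ± 0.275 of RPL3. It was the lowest member, under 1 FPKM by a log2 difference of -0.47 ± 0.05 (SE, limma adjusted p = 0.000334), but it was no longer below that level when mitochondrially encoded genes were removed and the rest rescaled, and it was not tested when a mean of 0.5 FPKM was required.

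RPL26L1 was the abundant paralog. It differs from RPL26 by few residues in human, so reads of the pair may be hard to tell apart. RPL26L1 had 129.7 (S1), 113 (S2) and 149.9 FPKM (S3), highest in S3, where its parent was lowest. It made up 17.9% of the FPKM of the pair in S3, against 13.1% in S2 and 14.9% in S1. RPS27L, a p53 target in human, stood at 13.8, 12.3 and 12.7 FPKM, or 1.88% ± 0.171 of RPS27. RPL7L1, which takes part in ribosome assembly more than in the finished ribosome, had 13.0, 14.0 and 11.5 FPKM, or 15.9% ± 1.91 of RPL7.

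In each of the 5 pairs tested the paralog was lower than its parent in 3 of 3 libraries. The mean log2(FPKM + 1) differences, paralog minus parent, ran from -5.63 ± 0.13 for RPS27L to -2.47 ± 0.27 for RPL26L1 (SD, n = 3), with -4.67 ± 0.07 for RPL3L and -2.57 ± 0.16 for RPL7L1. The exact two-sided sign-flip permutation test gave p = 0.25 in each pair, which is the smallest that 3 libraries allow (adjusted p = 0.25 over 5 pairs). RPL36AL, the autosomal copy of RPL36A, had 25.6 (S1), 27.7 (S2) and 21.4 FPKM (S3), and had no parent row under the plain symbol to be set against.

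**Figure D2:**
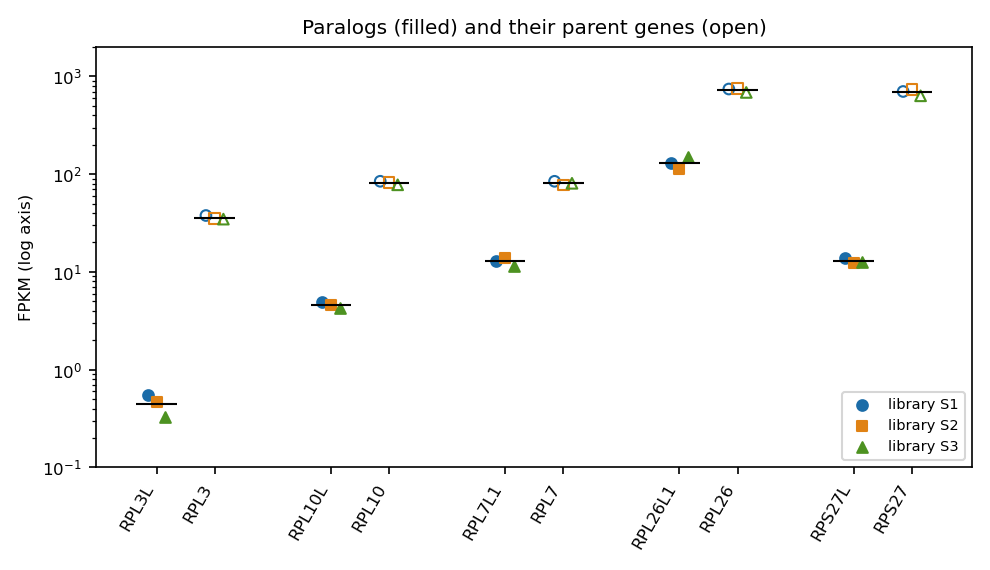
FPKM (log axis) of 5 paralogs (filled) and their parent genes (open) in libraries S1 (circles), S2 (squares) and S3 (triangles), with the mean as a bar. Each paralog lies under its parent in every library, and RPL26L1 is the highest paralog at 131 FPKM.

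Among the members, large subunit genes stood lower than small subunit genes. The mean log2(FPKM + 1) of the large subunit minus that of the small was -0.89 in S1, -0.89 in S2 and -0.92 in S3 (-0.90 ± 0.02, SD, n = 3), with the large subunit higher in 0 of 3 libraries. No test was run on these scores. Of the 6 paralogs 5 belong to the large subunit, and without the paralogs the difference was -0.45. The medians of the members other than paralogs were 220.1 FPKM for 28 large subunit genes and 343 FPKM for 23 small subunit genes. The summed FPKM was 11559 for the large against 14019.8 for the small subunit in S1, 11312 against 14448 in S2 and 10730.4 against 13300.3 in S3.

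The levels varied little between libraries. The median CV of the members was 5.78%, against 7.39% for the 581 other genes that averaged 100 FPKM or more and 12.2% for all tested genes. A CV under 10% was found in 45 of 57 members and in 67.5% of those 581 genes. Across the 57 genes, which share libraries and are not independent replicates, Spearman's rho was 0.996 for S2 and S1, 0.990 for S3 and S1 and 0.988 for S3 and S2. Over all 17949 tested genes it was nearly the same, at 0.994, 0.988 and 0.989 in that order. Of the 10 highest members, 9 were the same in every library, as were 9 of the 10 lowest.

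The order of the libraries nevertheless differed between the members and other genes. In S3, 38 of 57 members had their lowest value (66.7%). That held for 33.1% of the 12340 genes that averaged 1 FPKM or more and 22.9% of the 581 other genes above 100 FPKM. In S1, 36 of 57 members had their highest value, as did 4462 of the 12340 genes and 173 of the 581. On the log2(FPKM + 1) scale, S3 minus the mean of S1 and S2 had a median of -0.09 over the members and of 0.05 over the 12340 genes. The members' value depends on the scaling. After each library was rescaled to 1000000 it was 0.04, with the median gene at 0.17, and with mitochondrially encoded genes removed it was -0.15, with the median gene at 0.0042. Relative to the median gene the members stood at -0.15 as deposited, -0.13 after rescaling, -0.15 with mitochondrially encoded genes removed and -0.18 after quantile normalization. Under each of the first 3, 50 of the 57 members were lower than that median gene, and under the last 49 were. In S3 the summed Sertoli markers were lower than in S1 and S2, with 5 of 7 lowest in S3. Most of that sum was CLU, while WT1 had 41.9 FPKM in S3, against 40.9 in S2 and 45.6 in S1. The 4 Leydig markers summed to 4.66 FPKM in S3, against 12.3 in S2 and 15.5 in S1, and 4 of 4 were lowest in S3. CYP11A1 made up most of each Leydig sum, with 2.64 FPKM in S3, against 9.75 in S2 and more in S1. INSL3 had 0.481 FPKM in S3, against 0.911 in S2 and 1.697 in S1. CYP17A1 differed little, with 1.47 FPKM in S3, against 1.52 in S2 and 1.698 in S1, and STAR was near 0 throughout. The 4 peritubular markers summed to 51.7 FPKM in S3, against 64.8 in S2 and 86.7 in S1, but TAGLN carried that order. Without TAGLN the other 3 summed to 42.8 FPKM in S3, against 40.4 in S2 and 49.5 in S1. The 9 spermatogonial markers summed to 368 FPKM in S3, against 284 in S2 and 294 in S1, and the 5 meiotic markers to 795, against 705 and 637. Much of the spermatogonial rise was NANOS3, with 98.1 FPKM in S3, against 43.7 in S2 and 50.0 in S1. Of the 9, 6 were highest in S3, against 50.0% of the 12340 genes. The part of these differences in the result was not tested. In bulk samples fewer cells of a type and less RNA per cell cannot be told apart.

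Some members went the other way. RPS25, a small subunit protein needed for initiation at some viral internal entry sites, had 269 FPKM in S3, against 175 in S2 and 155 in S1. S3 was 1.63 times the mean of S1 and S2, and RPS25 had the largest CV of the family, 30.5%. RPS13, an early-assembling protein of the small subunit, had 415 FPKM in S3, against 313 in S2 and 318 in S1. RPL26L1 came next by size, and RPS28 stood at 673 FPKM in S3, against 587 in S2 and 628 in S1. RPS25, RPS13 and RPL26L1 stayed higher in S3 under each scaling tried, RPS25 by 0.63 to 0.84 on the log2 scale. On the log2(FPKM + 1) scale RPS23 went furthest down, with 43.7 FPKM in S3, against 49.8 in S2 and 63.2 in S1. By the ratio of FPKM, RPL3L went further down. Its S3 value was 0.64 times the mean of S1 and S2, against 0.77 for RPS23. RPL3L had a CV of 25.7%, but it lay under 1 FPKM in each library. RPS25, RPS23, RPS13 and RPL26L1 were the 4 members with an SD of log2(FPKM + 1) above 0.2, a scale that shrinks differences near 0 FPKM. A single library decides the direction of these genes, and with 1 library on that side no test was possible.

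**Figure D3:**
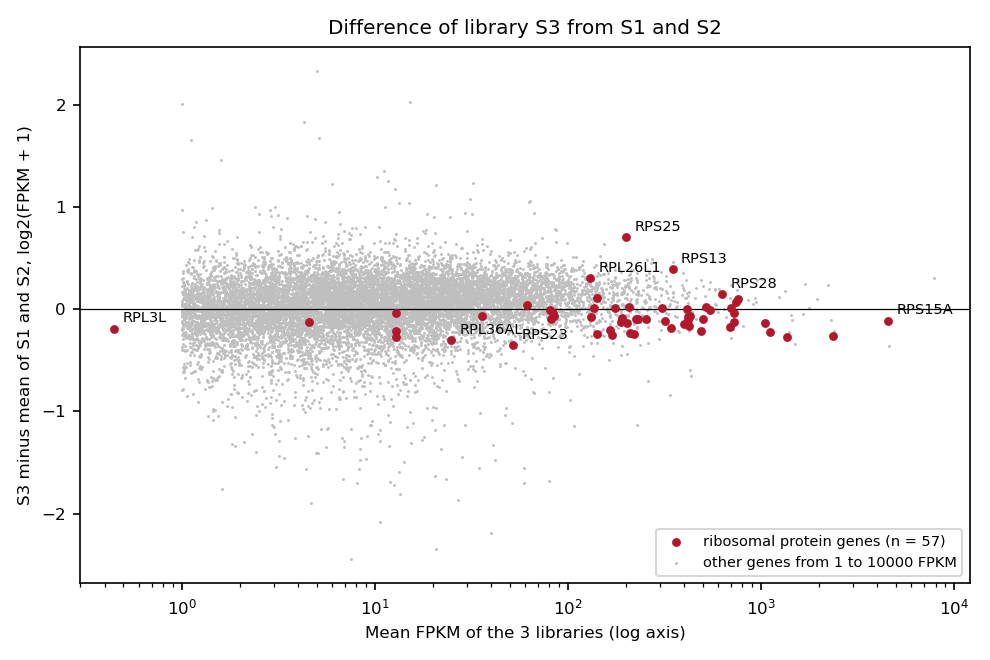
Log2(FPKM + 1) in S3 minus the mean of S1 and S2 against the mean FPKM (log axis), for 57 ribosomal protein genes (large points) and other genes from 1 to 10000 FPKM (small points). Of the ribosomal protein genes 42 lie under the line at 0 as deposited, against 41.1% of all genes that averaged 1 FPKM or more. Once each library is rescaled to 1000000, 37 lie above it and 20 under it, against 24.3% of such genes under it. As deposited, RPS25 lies at 0.70, RPS13 at 0.39 and RPL26L1 at 0.31.

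Other parts of the ribosome carry other names. RACK1, a signalling scaffold on the small subunit, had 599.7 ± 11.2 FPKM (SD, n = 3). Of the rows outside the name rule, the row that the reference table calls RPS24 stood highest, with 4764 (S1), 5174 (S2) and 3877 FPKM (S3), a mean of 4605 ± 663 against 4546 ± 387 for RPS15A (SD, n = 3 each). The 2 rows overlapped, with RPS24 higher in S1 and S2 and lower in S3. The row it calls RPS29 had 2528, 2485 and 2166. The RPS24 and RPS29 rows were both lowest in S3. The row it calls RPL14 had 377 ± 33.3 FPKM, RPS7 143 ± 10.4 and RPS27A, a ubiquitin fusion, 91.6 ± 8.91, and the readthrough row RPL17-C18orf32 had 136 ± 4.91. With these 8 rows counted, the family took 4.02% ± 0.0475 of the summed FPKM (SD, n = 3). This share still leaves out the symbols that were found in no row.

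Genes for making ribosomes had lower median levels than the ribosomal protein genes. Of 15 genes of RNA polymerase I and its factors, which transcribe the rRNA precursor, all lay above 1 FPKM (limma; 65.6% of all genes did), with a median of 23.3 FPKM. TAF1D was highest at 120.4 ± 24.1 FPKM, followed by POLR1D at 50.7 ± 2.31 and POLR1F at 49.3 ± 2.88, and TAF1C and POLR1H were lowest at 7.85 ± 0.300 and 7.07 ± 1.29. Of 22 measured genes that modify and process rRNA in the nucleolus, 21 lay above and 1 below 1 FPKM. NCL, nucleolin, stood at 801 ± 51.9 FPKM, and SNU13 and NOP58, core proteins of the box C/D particles that guide rRNA methylation, at 198 ± 9.28 and 178 ± 11.4. The gene below was WDR43, a part of the early small subunit processome, at 0.375 (S1), 0.373 (S2) and 0.630 FPKM (S3) (limma adjusted p = 0.000677). NOL6 was the next lowest at 10.8 ± 0.508.

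Assembly factors bring the rRNA and the proteins together. For the large subunit all 21 genes lay above 1 FPKM, with a median of 26.3 FPKM, led by NSA2 at 308 ± 26.7 and SBDS, mutated in Shwachman-Diamond syndrome, at 202 ± 12.1. NOP2 stood at 102 ± 6.82, and WDR12 and MRTO4 were lowest at 8.61 ± 0.590 and 7.94 ± 0.254. For the small subunit 12 of 13 lay above, with a median of 21.0 FPKM, led by KRR1 at 129 ± 1.18, BMS1 at 66.1 ± 0.943 and PNO1 at 60.8 ± 4.33. NOC4L stood at 3.15 ± 0.471, and LTV1, an export and maturation factor, was not told apart from 1 FPKM at 1.02 ± 0.319 (limma adjusted p = 0.967). All 11 measured chaperones and importers of ribosomal proteins lay above 1 FPKM, led by NAP1L1 at 190.2 ± 26.8, BTF3 at 175 ± 5.96 and IPO5 at 93.8 ± 2.72. GRWD1, whose yeast counterpart escorts RPL3, was lowest in that list at 4.98 ± 0.164, and HEATR3, which accompanies RPL5, came next at 9.75 ± 0.754.

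Of the 8 lists, the other TOP messages had the highest median. NAP1L1 and BTF3 belong to this list too. Of 15 measured, all lay above 1 FPKM and 9 above 100 FPKM (2.96% of all genes did), with a median of 175 FPKM, against 226 FPKM for the ribosomal protein genes. TPT1 had 1453 ± 71.7 FPKM, EEF1A1, the elongation factor that brings the charged tRNA, 1426 ± 51.8, and PABPC1, the poly(A)-binding protein, 955 ± 124. EIF4B and EEF1B2 were the lowest at 46.6 ± 1.27 and 43.1 ± 3.85. In S3 minus the mean of S1 and S2 this list had a median of -0.05, between the ribosomal protein genes and the 12340 genes. The share with the lowest value in S3 was 66.7% in this list (10 of 15), the same as that of the ribosomal protein genes (38 of 57). The lists of RNA polymerase I, at 0.14, and of large subunit assembly, at 0.08, stood on the other side of 0 as deposited.

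The regulators of TOP translation were present. All 15 measured genes lay above 1 FPKM, with CNBP at 288 ± 8.48, RHEB, the small GTPase that activates mTORC1, at 242 ± 26.1 and LARP1 at 85.5 ± 4.92. RPTOR and RPS6KB2 were the lowest, at 6.15 ± 0.938 and 3.08 ± 0.307. The genes that rescue and survey stalled ribosomes all lay above 1 FPKM, 15 of 15, with ABCE1, which splits the subunits, at 149 ± 10.7, RNF10 at 117 ± 4.51 and EDF1 at 88.9 ± 10.7, and with LTN1 at 9.17 ± 1.64 and ASCC2 at 7.50 ± 0.584 the lowest. In the deposited values 14 of these 15 genes had their highest value in S3, against 50.0% of the 12340 genes and 8 of the 57 ribosomal protein genes. The median of S3 minus the mean of S1 and S2 was 0.17 for this list as deposited.

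**Figure D4:**
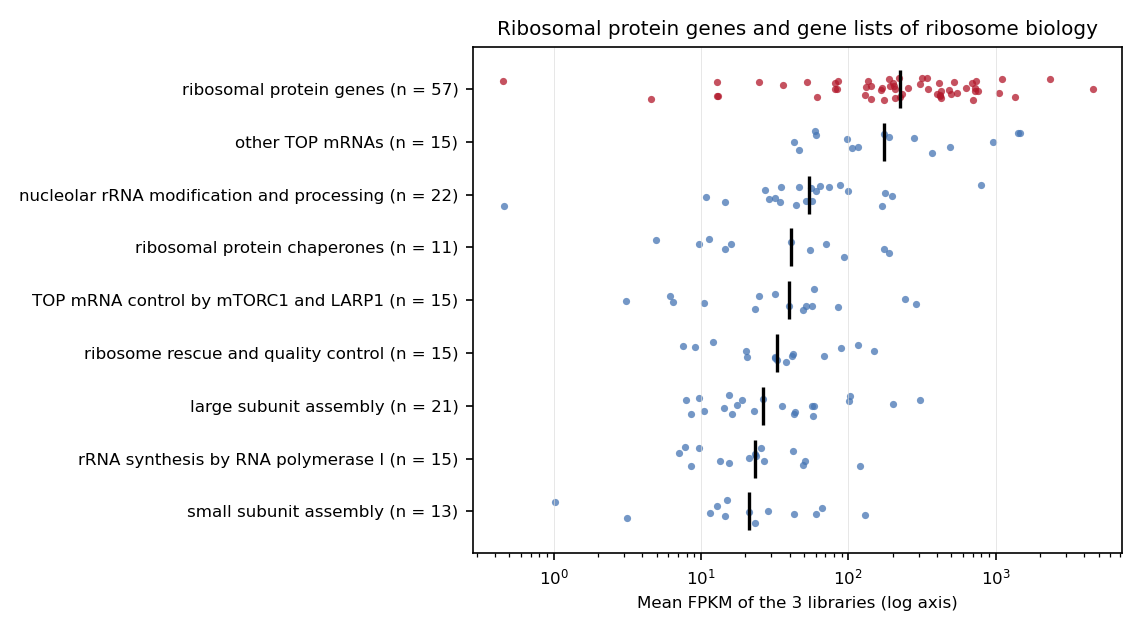
Mean FPKM of 3 libraries (log axis) for each ribosomal protein gene and each gene of 8 lists of ribosome production and use, with the median of each as a bar. The ribosomal protein genes, with a median of 226 FPKM, and the other TOP mRNAs, with 175 FPKM, lie right of the lists of assembly factors, whose medians are 26.3 and 21.0 FPKM.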

How the data were processed

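The authors removed rRNA from total RNA, per the labels' protocols, and the remainder was made into directional libraries and read as 150 bp pairs on a HiSeq 4000. Reads were trimmed with cutadapt 1.9.3 and aligned with HISAT2 2.0.4, and the authors deposited FPKM per Ensembl gene from Cuffdiff, as those protocols state, in a table titled TPM. Coordinates are left out, since susScr3 and Sscrofa11.1 both appear in the submitters' processing notes. Depth is unknown and no counting interval is given.

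Values under 1e-06 were set to 0 (170 genes). Values were analysed as log2(FPKM + 1). limma 3.58.1 in R 4.3.3 tested each gene's mean against 1 and 100 FPKM (intercept only, eBayes with trend, two-sided, Benjamini-Hochberg over 17949 genes above 0 in at least 1 library), and was tested on simulated data. Paralog pairs were compared within libraries by an exact sign-flip permutation test. Some members are counted in all sums and totals but are not reported singly here. Any other member could be named, and of each gene list the 3 highest, the 2 lowest and any gene not above 1 FPKM. List genes whose row has 2 conflicting symbols were not used. The members and lists were chosen with earlier results of these data known. Alternatives were another pseudocount, a filter, other scalings, no trend, other levels and leaving out each library.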

Additional observations from a re-analysis of the deposited data

How the results depend on the processing

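No paired analysis was possible because only 1 group of samples exists and no groups share replicate numbers. The paralog differences kept their sign under every pseudocount, scaling and left-out library tried, and so did the lower level of large than of small subunit genes. Calls against 100 FPKM, or 200 FPKM where the level was moved, were followed over 54 members reported singly. They were the same in 515 combinations of gene and alternative and turned to the other side in 14. They were lost in 7 with the same sign and in 3 with a changed sign (RPS25 at 200 FPKM, RPL34 and RPL21 after rescaling). Leaving out 1 library changed no such call. Calls against 1 FPKM are not in this count. Depth is unknown, so no limit set by depth is given.

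When the level was 5 FPKM, 7632 genes were higher and 9130 lower. When genes averaging under 0.5 FPKM were left out, 798 genes lay below 1 FPKM and no member did (0). With mitochondrially encoded genes removed and the rest rescaled upwards, 3115 genes and 0 members lay below 1 FPKM and 6 members below 100 FPKM. At a level of 200 FPKM 29 members lay above and 21 below, and the rest were not told apart from it. The shares of all genes at 200 FPKM, and at 100 FPKM after that removal, are not given here.

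The share of the family was 6.98% with mitochondrially encoded genes removed from the sum and 4.02% with the rows outside the name rule, a choice added once the data had been seen. The subunit difference was -0.96 with a pseudocount of 0.1, -0.94 with mitochondrially encoded genes removed, -0.79 without RPL22, -0.45 without paralogs and -0.65 by medians.

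Against 200 FPKM the sign turned for RPS25 (-0.043), RPL13 (-0.19), RPS4X (-0.24), RPL15 (-0.27), RPLP2 (-0.49), RPL35 (-0.49), RPL6 (-0.55), RPS20 (-0.59) and RPL26L1 (-0.62). Against 100 FPKM it turned after rescaling to 1000000 for RPL34 (0.023) and RPL21 (0.017), and with mitochondrially encoded genes removed for RPL34 (1.22), RPL21 (1.21), RPL10 (1.17), RPL7 (1.16), RPS9 (0.76) and RPS23 (0.51). These changes follow from the moved level or scale.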
